A study of Homo sapiens with 6 samples.

Results

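The genes described here are 10 early response genes of THP1 cells, measured by RNA-seq after 6 h with WFA or with its DMSO vehicle. They were taken by name, as the rows of the deposited count table whose gene name is EGR1, EGR2, EGR3, NAB1, NAB2, IER2, IER5, NR4A1, NR4A2 or NR4A3. All 10 names were found among the 26485 names in the table. The choice used the gene families, with earlier results of these data known.

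THP1 is a human acute monocytic leukemia cell line, and WFA (Withaferin A) is a steroidal lactone from a medicinal plant. The 6 libraries form a DMSO group and a WFA group of 3 each, with both groups otherwise cultured alike, and replicates 1 to 3 stand for independent experiments on this single line. The concentration of WFA is 1 mM in the sample labels, whereas the paper states 1 μM for this experiment. The comparison asks which transcripts had changed after 6 h of exposure.

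Early response genes are switched on within minutes of a signal, before any new protein is needed, and their mRNAs are usually short-lived. In the ERK pathway the kinase reaches the factors SRF and ELK on CArG boxes in promoters such as that of EGR1, whereas cAMP and calcium signals act through CREB on the CRE. EGR1, EGR2 and EGR3 are zinc finger activators, and NAB1 and NAB2 are corepressors that bind them and recruit the NuRD complex. NAB2 is itself a target of EGR factors, which closes a feedback loop. NR4A1, NR4A2 and NR4A3 are orphan nuclear receptors. IER2 and IER5 are small proteins that share an N-terminal domain, and IER5 is known as a target and a partner of HSF1, the master regulator of the heat shock response. In monocytes and macrophages, EGR factors and their corepressors are known for their part in lineage choice.

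Stretches of 6 promoters are shown, chosen from those that hold matches to the motifs that were searched. They come from the RefSeq promoter table (GRCh38.p14), which holds the bases from 250 before to 50 after each start site and matched 8 of the 10 genes, all but EGR3 and NR4A2. All are written 5′ to 3′ on the strand of the gene, with motif matches in capitals.

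EGR1, chr5:138465339-138465423, plus strand, where capitals mark 2 CArG boxes and 2 short CRE forms (TGACG or its reverse complement): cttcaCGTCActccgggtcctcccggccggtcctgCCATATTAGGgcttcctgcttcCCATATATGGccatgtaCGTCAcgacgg
EGR2, chr10:62816411-62816481, minus strand, with 1 CArG box and 2 short CRE forms: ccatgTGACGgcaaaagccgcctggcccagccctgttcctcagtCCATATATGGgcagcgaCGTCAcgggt
NR4A3, chr9:99821770-99821810, plus strand, with 3 short CRE forms: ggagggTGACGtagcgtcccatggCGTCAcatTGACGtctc
NAB2, chr12:57089034-57089079, plus strand, with 1 EGR site: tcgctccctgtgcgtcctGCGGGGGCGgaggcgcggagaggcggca
NAB1, chr2:190648835-190648884, plus strand, with 2 EGR sites that overlap by 3 bases: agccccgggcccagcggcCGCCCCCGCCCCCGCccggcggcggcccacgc
IER5, chr1:181088455-181088500, plus strand, with 1 core of a heat shock element: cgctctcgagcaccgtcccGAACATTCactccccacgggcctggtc

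Among the 35116 promoter windows of the table, 1.29% held a CArG box on either strand and 5.77% held an EGR site (GCGGGGGCG or GCGTGGGCG). The heat shock element core (GAANNTTC or TTCNNGAA) was in 13.5% of them and the short CRE form in 24.6%. The complete CRE (TGACGTCA), which contains the short form, was in 1.85% of all windows and in none of the windows of these genes, and the ETS core (CCGGAAG) was in 10.3% and, among these genes, in that of IER2. The CArG box of EGR2 lay in the window of 1 of its 3 listed start sites. No motif searched was found in the windows of NR4A1. Not printed above were a short CRE form in IER2, short CRE forms and an EGR site (GCGTGGGCG) in NAB1, and a further short CRE form in NR4A3. Among the 14072 windows of tested genes the shares were 1.09% for the CArG box, 8.83% for the EGR site, 10.6% for the heat shock element core, 31.5% for the short CRE form, 2.71% for the complete CRE and 16.6% for the ETS core. These are matches of letters and were not tested for binding.

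Counts summed to between 11006035 and 13872810 per library, and 12854 genes passed the filter on low counts and were tested. By the quasi-likelihood test of edgeR, after adjustment over all of them by Benjamini-Hochberg, 50.5% passed at 0.05, with 25.8% higher and 24.7% lower with WFA. The monocytic markers LYZ, ITGB2, CD68 and CSF1R were abundant, and the summed level of the 12 monocytic markers was 3963 to 4483 CPM (counts per 1000000, scaled with TMM factors) with DMSO and 3600 to 4490 with WFA. Of these 12, 1 was higher and 5 were lower with WFA, and none was at 0. CD14 and MPO were scarce, at means of 5.72 and 2.46 CPM with DMSO and 2.45 and 2.39 CPM with WFA. Of 16 markers of other cell types, HBB, HBA1, PPBP, PF4 and COL1A2 had no count in any library. How the authors' counting treated these genes is not given, so their absence was not shown. Of the 4 markers that could be tested, 2 were higher and 1 was lower with WFA. Both of the higher ones reached the filter on low counts through the WFA libraries. All 16 summed to 357.5 to 404 CPM with DMSO and 320.9 to 338 with WFA. PECAM1 made up nearly all of this, at 354 to 400 CPM with DMSO and 302 to 324 with WFA. The 15 other than PECAM1 summed to 3.45 to 6.50 CPM with DMSO and 12.7 to 18.5 with WFA. COL1A1, at 3, 4 and 10 counts with DMSO and 107, 106 and 135 with WFA, rose most among them, and the part of these markers in the results was not tested. In bulk RNA, fewer cells with a transcript and less of it per cell cannot be told apart.

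Against this background, 5 of the 10 genes rose (IER5, NR4A2, NAB2, NR4A1 and EGR2), EGR1 fell, and EGR3, NAB1 and IER2 did not pass the test. With the replicate block, a term for the experiment that DMSO and WFA libraries of one number share, 2 were called lower, EGR1 and NAB1. NR4A3 was too low to be tested. Of the 5 that rose, 4, with NR4A1 among them, rose over 2-fold, which 8.11% of the tested genes did. None fell over 2-fold, which 5.20% did. The median log2 fold change was 0.89 for the 9 tested members, 0.62 without NR4A1, which passed the filter on low counts through its WFA libraries, and 0.02 for all tested genes. Without NR4A1, 4 of the other 8 tested members were called higher and 1 lower. WFA libraries were all above the DMSO libraries for 6 of the 10 genes, NR4A1 among them, and all below for 2. This separation was shown by 29.6% and 28.5% of all tested genes. An exact two-sided permutation test on 3 against 3 libraries cannot give a p-value under 0.1, and it gave 0.1 for each of those 8 genes.

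**Figure D1:**
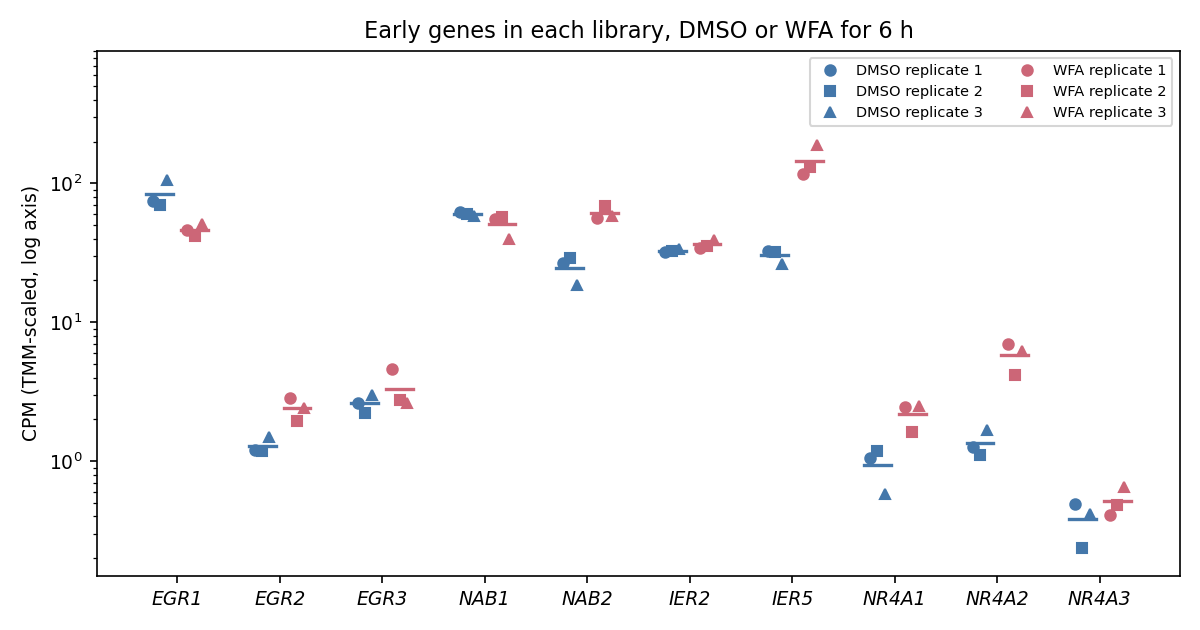
Level of each of the 10 genes in each library, as TMM-scaled CPM on a log axis, with DMSO in blue, WFA in red, a symbol for each replicate number and a line at the mean of 3. IER5, NR4A2 and NAB2 sit higher in every WFA library, EGR1 sits lower, and IER2 hardly moves between 32.3 and 39.4 CPM.

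EGR1 fell with WFA. Its level was 74.6, 70.2 and 105 CPM in DMSO replicates 1, 2 and 3, and 46.0, 41.8 and 50.8 CPM in the WFA replicates. Every WFA library was under every DMSO library, and DMSO replicate 3 was the highest of all. The means were 83.4 ± 19.1 CPM (SD, n = 3) and 46.2 ± 4.51 CPM (SD, n = 3). The log2 fold change was -0.85 (SE 0.14, edgeR adjusted p = 0.000104), a level 1.80-fold lower with WFA. Leaving out DMSO replicate 3 gave -0.65, leaving out any other library gave values down to -0.97, and the test was passed each time.

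EGR2, known for its roles in myelination and in macrophages, went the other way at a far lower level. It had 17, 15 and 18 counts with DMSO, or 1.20, 1.18 and 1.50 CPM. With WFA it had 35, 24 and 26 counts, or 2.86, 1.93 and 2.42 CPM. The groups did not overlap. This gave a log2 fold change of 0.89 (SE 0.28, edgeR adjusted p = 0.0145), but this call did not hold in DESeq2's Wald test (log2 fold change 0.88, adjusted p = 0.0777). It was also lost without DMSO replicate 1, DMSO replicate 2 or WFA replicate 1, with edgeR adjusted p-values of 0.0513, 0.0548 and 0.0672.

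EGR3, a close relative of EGR2, did not pass the test. Its counts of 37, 28 and 36 with DMSO and 56, 34 and 28 with WFA overlapped, since only WFA replicate 1 stood above the DMSO libraries. The log2 fold change of 0.35 (SE 0.27, edgeR adjusted p = 0.288) had a 95% confidence interval from -0.21 to 0.92, which holds changes as large as that of EGR2. It was 0.04 without WFA replicate 1.

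Because EGR1 accounts for nearly all EGR counts, the family as a whole followed it. The 3 genes summed to 78.4, 73.6 and 110 CPM with DMSO and to 53.4, 46.5 and 55.8 CPM with WFA. EGR1 made up 95.5 ± 0.380% (SD, n = 3) of these counts with DMSO and 89.0 ± 2.59% with WFA, while the share of EGR2 went from 1.50 ± 0.123% to 4.62 ± 0.644%. EGR1 and EGR2, whose CArG boxes are shown above, had fold changes of opposite sign. EGR3 had no entry in the promoter table and was not searched.

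The corepressors of the EGR factors separated as well. NAB2 had 26.8, 28.9 and 18.4 CPM in the DMSO replicates and 56.5, 69.1 and 58.6 CPM in the WFA replicates. All WFA libraries were above all DMSO libraries, with DMSO replicate 3, the library highest in EGR1, being the lowest in NAB2. Its log2 fold change was 1.31 (SE 0.14, edgeR adjusted p = 2.7e-06), a 2.48-fold higher level. NAB2 lies on chromosome 12 (GRCh38, 57088894 to 57095476) and shares 69 exonic bases, 2.29% of its exons, with STAT6 on the other strand. STAT6 rose too, with a log2 fold change of 0.91 (SE 0.10), and the library kit does not mark strand, so reads in those bases cannot be assigned to one gene or the other.

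NAB1, the second corepressor, had 62.2, 60.2 and 58.6 CPM with DMSO and 55.5, 57.7 and 39.8 CPM with WFA. Its WFA libraries were all lower, 2 of them only slightly. The log2 fold change of -0.24 (SE 0.12, edgeR adjusted p = 0.113) did not pass the test and had a 95% confidence interval from -0.50 to 0.02. With the replicate block it was -0.25 and passed (edgeR adjusted p = 0.0121), as it did at -0.32 with libraries scaled by total counts (edgeR adjusted p = 0.0340). Leaving out WFA replicate 3 gave -0.09, and leaving out WFA replicate 2 gave -0.34 and a passed test (edgeR adjusted p = 0.0412).

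**Figure D2:**
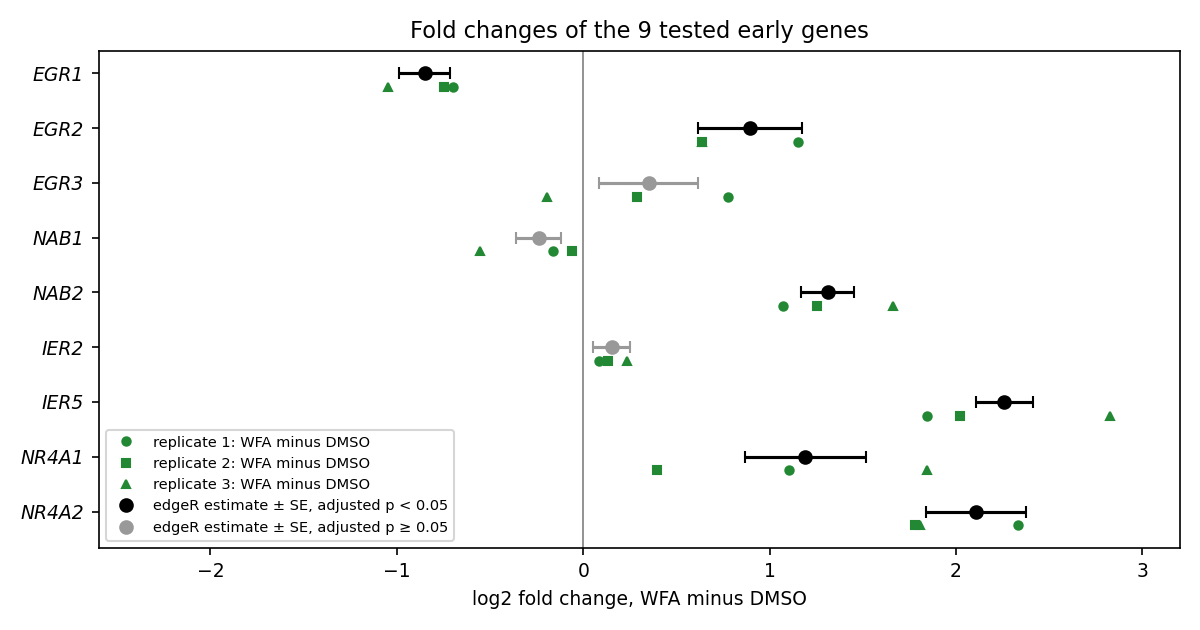
Log2 fold change (WFA minus DMSO) of the 9 tested genes from edgeR, with bars of 1 SE, in black where the adjusted p-value was under 0.05 and in gray where it was not. Green symbols give the difference within each pair of same-numbered libraries as log2 CPM (prior count 2), and all 3 pairs share a sign for every gene but EGR3.

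The order of the NAB counts was inverted, though only narrowly in WFA replicate 1, with 680 counts for NAB1 and 692 for NAB2. NAB1 made up 71.2 ± 4.41% (SD, n = 3) of NAB counts with DMSO and 45.2 ± 4.56% with WFA. Ratios between 2 genes of one library were taken for 7 pairs of genes chosen by family, with a prior count of 2, scaled to library size, added to each count. Apart from this prior count they do not depend on how libraries are scaled. The prior count draws ratios that involve low counts toward 0. The log2 ratio of NAB2 to EGR1 was -1.47, -1.28 and -2.50 with DMSO and 0.30, 0.72 and 0.21 with WFA. NAB2 counts were thus under those of EGR1 in every DMSO library and above them in every WFA library. The mean difference was 2.16 on the log2 scale (exact two-sided permutation p = 0.1, or 0.14 adjusted over the 7 ratios). EGR2 gained on EGR1 by 1.64 and EGR3 by 1.12 on the same scale, each without overlap of the groups and with the same p-values.

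The NR4A receptors were scarce in these cells in both groups. NR4A2, known as NURR1, had 18, 14 and 20 counts with DMSO and 86, 52 and 67 with WFA, which is 1.27, 1.11 and 1.67 CPM against 7.02, 4.19 and 6.23 CPM. Each WFA library was above each DMSO library. The log2 fold change of 2.11 (SE 0.27, edgeR adjusted p = 1.35e-05) was a 4.31-fold rise and exceeded that of 98.3% of the tested genes. It stayed between 1.94 and 2.30 with any library left out.

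NR4A1, known as NUR77 and the receptor most linked to monocytes, rose from 15, 15 and 7 counts to 30, 20 and 27. The groups did not overlap, but DMSO replicate 2 and WFA replicate 2 were close, at 1.18 and 1.61 CPM. The log2 fold change was 1.19 (SE 0.33, edgeR adjusted p = 0.00681), with within-pair differences of 1.10, 0.40 and 1.84 in replicates 1, 2 and 3. NR4A1 passed the filter on low counts through its WFA libraries, since DMSO replicate 3 was under the required level of 0.794 CPM (before TMM scaling). A lincRNA on the other strand covers 10.3% of its exonic bases.

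NR4A3, known as NOR1, was near the lower limit of what these libraries can show. It had 7, 3 and 5 counts with DMSO and 5, 6 and 7 with WFA. The groups overlapped, and with all counted genes kept in the fit the log2 fold change was 0.38 (SE 0.58, edgeR adjusted p = 0.643), so a change was not detectable at this depth. A floor of 3 counts corresponds to 0.211 to 0.279 CPM in these libraries and covers counting error only. Together the 3 receptors summed to 2.53 to 2.81 CPM with DMSO and 6.28 to 9.88 CPM with WFA, of which NR4A2 was 50.4 ± 10.5% (SD, n = 3) and 68.0 ± 2.65%. The ratio of NR4A2 to NR4A1 overlapped between the groups (exact two-sided permutation p = 0.3). So did that of NR4A3 to NR4A1 (exact permutation p = 0.3).

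IER5 had the largest log2 fold change of the 9 tested members. It had 32.4, 31.9 and 26.4 CPM in the DMSO replicates, from 461, 404 and 317 counts. In the WFA replicates it had 117, 130 and 188 CPM, from 1431, 1615 and 2025 counts. Every WFA library stood above every DMSO library, and WFA replicate 3 was the highest. The log2 fold change was 2.26 (SE 0.15, edgeR adjusted p = 2.12e-08), a 4.79-fold rise that exceeded that of 98.6% of the tested genes. With a library left out it ranged from 2.03, in the absence of WFA replicate 3, to 2.39, in the absence of WFA replicate 1.

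IER2, its relative with the same N-terminal domain, had 32.3, 32.4 and 33.4 CPM with DMSO and 34.2, 35.5 and 39.4 CPM with WFA. The WFA libraries were all slightly higher, yet the log2 fold change of 0.15 (SE 0.10, edgeR adjusted p = 0.222) did not pass the test. Its 95% confidence interval ran from -0.06 to 0.37. In GENCODE 29 an antisense gene on the other strand covers 30.8% of the exonic bases of IER2, and without strand its reads cannot be told from those of IER2. The log2 ratio of IER5 to IER2 was 0.01, -0.02 and -0.34 with DMSO and 1.77, 1.87 and 2.26 with WFA. The counts of both genes were thus near equal with DMSO, and IER5 rose relative to IER2 by 2.08 on the log2 scale (exact two-sided permutation p = 0.1, 0.14 adjusted over the 7 ratios).

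**Figure D3:**
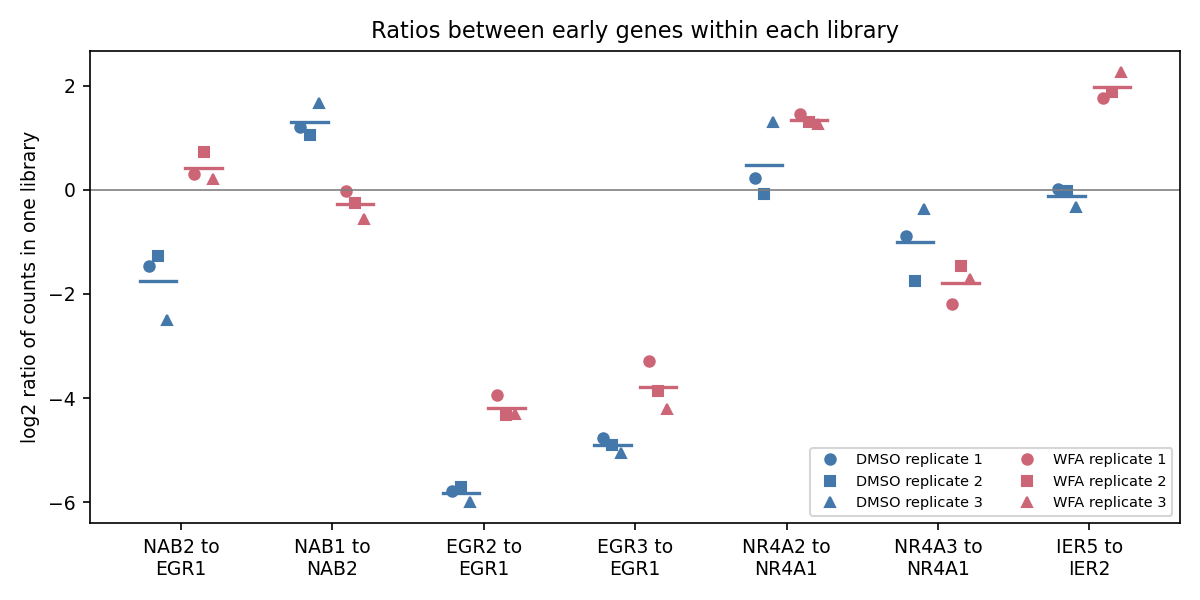
Log2 ratio of the counts of 2 genes within each library (prior count 2) for the 7 pairs, with DMSO in blue, WFA in red and lines at the means of 3. The groups are apart for 5 pairs, with NAB2 to EGR1 and NAB1 to NAB2 crossing 0, and they overlap for both NR4A ratios.

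Levels of different genes were compared as CPM per kilobase of the GENCODE 29 coding transcript with the longest reading frame. With DMSO the order was EGR1 at 26.6 ± 6.08 (SD, n = 3), NAB1 at 13.8 ± 0.415, IER2 at 11.1 ± 0.213, NAB2 at 9.11 ± 2.05 and IER5 at 7.22 ± 0.796. NAB2 and IER5 overlapped, and the other neighbours among these 5 did not. With WFA the order became IER5 at 34.7 ± 9.09, NAB2 at 22.7 ± 2.49, EGR1 at 14.7 ± 1.44, IER2 at 12.4 ± 0.911 and NAB1 at 11.7 ± 2.24. The ranges of EGR1 and IER2 overlapped here, as did those of IER2 and NAB1. The means of the remaining 5 genes were at most 0.601 CPM per kilobase with DMSO and 1.68 with WFA, with NR4A3 lowest in both groups. NR4A2 was the highest of these 5 with WFA and stood apart from EGR2 below it.

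The genes differ in the 3′ end of their transcripts. AUUUA pentamers, written ATTTA in DNA letters, are known from short-lived mRNAs. There were 10 in the 3′UTR of IER5, NAB1 and NR4A3, 4 in NR4A2, 3 in EGR3, NAB2 and NR4A1, 2 in EGR2, 1 in EGR1 and 0 in IER2, beside a median of 2 over 11526 tested genes with a coding transcript. The longer element TTATTTATT was present 3 times in IER5 and once in NAB1 and NAB2, and 8.1% of those tested genes had at least 1. IER5 is a gene of 1 exon with a 3′UTR of 3013 bases, and the median 3′UTR was 1015.5 bases. The stability of these mRNAs was not measured, and a link between the elements and the changes with WFA was not tested.

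Genes of the same class were described with fixed lists. Of 19 other early transcription factors, all were tested, with 12 higher and 3 lower with WFA and a median log2 fold change of 1.11. FOSB, one of those higher, reached the filter on low counts through the WFA libraries, and the other 18 had a median of 1.08. JUND and KLF6 rose, with log2 fold changes of 1.32 (SE 0.10) and 1.24 (SE 0.10). MYC fell by 2.21 (SE 0.09) and FOS, the partner of JUN in AP-1, fell by 0.79 (SE 0.15) on the log2 scale. Of 34 other early genes for signalling proteins and effectors, 32 were tested, with 19 higher and 6 lower and a median of 0.75. Of these, ARC, CYR61 and NUAK2 (higher) and RGS1 (lower) reached the filter on low counts through 1 group, and the other 28 had 16 higher, 5 lower and a median of 0.73. DUSP4, an ERK phosphatase, and RGS2, a regulator of G protein signalling, rose by 2.98 (SE 0.15) and 2.37 (SE 0.16) on the log2 scale. ZFP36L2, which binds AU-rich mRNAs, had a log2 fold change of -1.95 (SE 0.14), and TNFAIP3, an inhibitor of NF-kB signalling, one of -1.09 (SE 0.14). Beside these counts stand the 25.8% higher and 24.7% lower among all tested genes.

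Relatives outside the 10 genes were measured too. EGR4 had 2 to 9 counts per library and was not tested. WT1, whose zinc fingers resemble those of EGR1, went from 253, 281 and 232 counts to 70, 96 and 61, a log2 fold change of -1.63 (SE 0.16, edgeR adjusted p = 9.78e-07). IER5L, the closest relative of IER5, went from 78, 56 and 62 counts to 173, 242 and 262, a log2 fold change of 1.94 (SE 0.20, edgeR adjusted p = 1.33e-06). IER3, which shares only the name, was listed at 0 in all 6 libraries, and how the authors' counting treated it is not given.

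**Figure D4:**
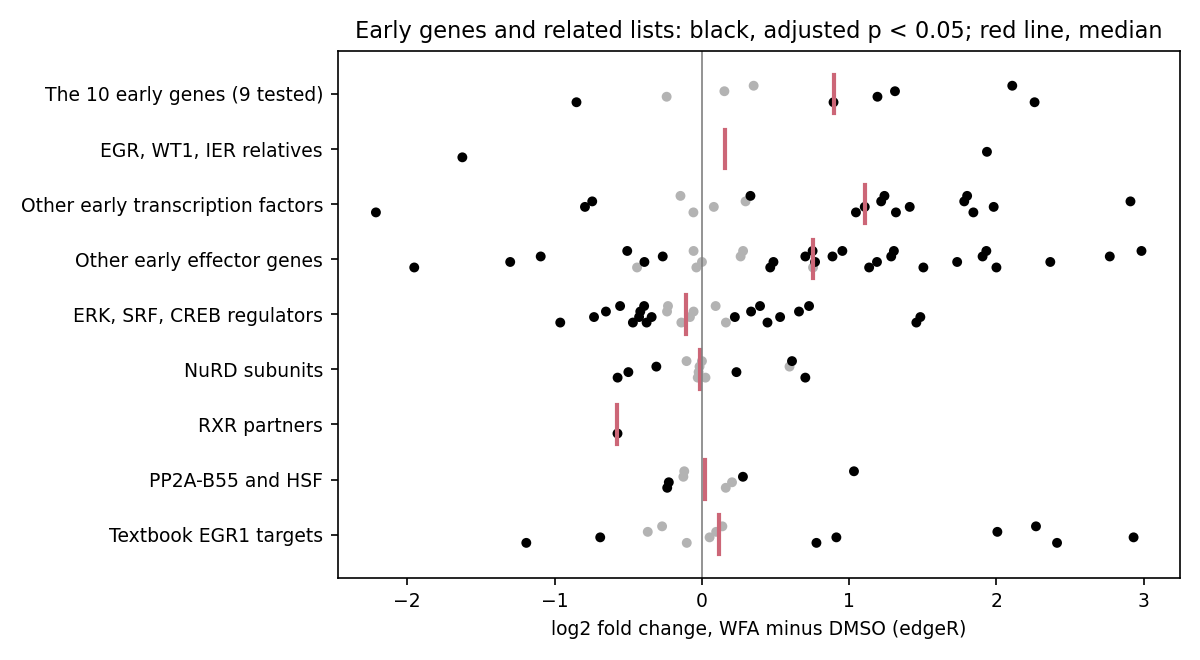
Log2 fold change (WFA minus DMSO) of each tested gene in the group of 10 and in the 8 fixed lists, in black where the edgeR adjusted p-value was under 0.05 and in gray where it was not, with a red line at the median. The 2 lists of other early genes lie to the right at medians of 1.11 and 0.75, and the regulators and NuRD subunits center near 0.

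The regulators upstream of these genes moved in both directions. Of 27 genes of the ERK cascade and of SRF and CREB, 26 were tested, with 9 higher and 10 lower and a median log2 fold change of -0.11. Among all tested genes, 25.8% were higher and 24.7% lower. CREB1 fell by 0.65 (SE 0.09) and MKL2, a coactivator of SRF, fell by 0.96 (SE 0.13) on the log2 scale. CREM, the CREB relative that also gives rise to an early repressor, and the kinase RPS6KA2 rose by 1.48 (SE 0.20) and 1.46 (SE 0.22) on the log2 scale. HRAS was listed at 0 in all 6 libraries, and how the authors' counting treated that gene is not given in the sources used here.

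The known partners of the proteins were described in the same way. Among 13 NuRD subunits, 3 were higher and 3 lower, with a median of -0.02. These counts were close to the shares over all tested genes, 25.8% higher and 24.7% lower. CHD4 and HDAC2 had log2 fold changes of -0.57 (SE 0.09) and -0.50 (SE 0.08), and CHD3 had 0.61 (SE 0.10). RXRA, a heterodimer partner of NR4A1 and NR4A2, fell by 0.58 (SE 0.09, edgeR adjusted p = 0.000107) on the log2 scale. RXRB and RXRG were listed at 0, and how the authors' counting treated them is not given, so their absence was not shown. Of 10 genes for the PP2A-B55 phosphatase, which binds IER proteins, and for HSF1 and HSF2, 8 were tested, with 2 higher and 2 lower. This too was close to the shares over all tested genes. Without DMSO replicate 1 or DMSO replicate 2, 1 of the 8 was called, and none was called lower in 4 of the 6 fits that left out a library. The catalytic subunit PPP2CB rose by 1.03 (SE 0.09), the scaffold subunit PPP2R1B rose by 0.28 (SE 0.08) and the catalytic subunit PPP2CA fell by 0.22 (SE 0.08), each on the log2 scale. HSF1 itself had a log2 fold change of -0.13 (SE 0.10, edgeR adjusted p = 0.323).

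Textbook targets of EGR1 moved in both directions with WFA. Of 16 such genes 14 were tested, with 6 higher, 2 lower and a median log2 fold change of 0.12. Among all tested genes, 25.8% were higher and 24.7% lower. Of the 6 higher targets, 2 reached the filter on low counts through the WFA libraries. The other 12 tested targets had 4 higher, 2 lower and a median of 0.07. A link between these genes and the fall of EGR1 was not tested. THBS1, an inhibitor of angiogenesis, rose by 2.93 (SE 0.24), the CDK inhibitor CDKN1A by 2.01 (SE 0.19) and the growth factor PDGFA by 0.91 (SE 0.12) on the log2 scale. F3, the tissue factor that starts coagulation, fell by 1.19 (SE 0.18) on the log2 scale. TNF was listed at 0 in all libraries, and how the authors' counting treated it is not given.

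Over the 6 libraries, the tested genes most like EGR1 in log2 CPM were QRSL1 (Pearson r = 0.9983), POU4F2 (r = 0.9978) and VCAN (r = 0.9962). Those most like NR4A1 were PSMB7 (r = 0.9964), NDRG3 (r = 0.9897) and DCTN2 (r = 0.9894). For IER5 they were CLIC2 (r = 0.9993), ALAS1 (r = 0.9990) and DEDD2 (r = 0.9989), all of which rose. These are the highest of 12854 correlations over 6 libraries that share the contrast of WFA with DMSO, and they are given as a description.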

How the data were processed

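RNA from 6 THP1 cultures was sequenced from TruSeq RNA v2 libraries. The deposited table holds raw read counts by gene, a normalized score that the authors derived from them with size factors and rounded, and the fold changes and p-values of their own comparison. Only the counts were used here. The submitters' processing notes name bcl2fastq 2.19, Trimmomatic, Bowtie2, Picard, featureCounts, DESeq2 and hg38, while annotation, strand setting and treatment of multiply mapped reads are not given in the sources used here.

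Counts were compared with edgeR 4.0.16 in R 4.3.3, with TMM normalization, filterByExpr (minimum count 10) and quasi-likelihood tests on 12854 genes, using a Benjamini-Hochberg adjusted p-value of 0.05. Standard errors were derived from the F statistic. Alternatives were a replicate block, DESeq2 1.42.0, other scalings, no filter, a robust fit and leaving out each library. Same-numbered libraries deviated together from their group means (correlations of 0.217, 0.333 and 0.245 over genes), so the numbers pair the experiments. Replicates differed beyond sampling noise (chi-square per gene of 5.92 to 10.9). Tested on simulated data for WFA against DMSO with 12854 genes, edgeR without the block recovered 87% of genes changed 2-fold and 100% of those with a log2 fold change of 2. The simulation changed 100 genes at each size, a far smaller share than the 50.5% called in the real data.

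The members, lists, motifs and tests were chosen with earlier results of these data known. Named are all 10 members, from each list the 3 genes with the smallest p-value and up to 2 called against the direction of most calls, lists of up to 4 genes in full, and the 3 genes most correlated with EGR1, NR4A1 and IER5. Some genes that these rules name are not reported here. HSF1, STAT6, TNF, HRAS, the list genes that reached the filter through 1 group and the cell type markers were named after their values were seen. Promoters come from RefSeq (GRCh38.p14), and lengths and 3′UTRs from GENCODE 29 (GRCh38).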

Additional observations from a re-analysis of the deposited data

How the results depend on the processing

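Each of the 9 tested genes kept its direction under the replicate block, DESeq2, total counts, upper-quartile and DESeq2 scaling, no filter, the robust fit and with each library left out. The calls of EGR1, NAB2, IER5, NR4A1 and NR4A2 held in all of them. EGR2 lost its call in DESeq2 (log2 fold change 0.876) and ranged from 0.746 to 1.03 with a library left out. NAB1 gained a call with the replicate block (-0.252), with total counts (-0.325) and without WFA replicate 2 (-0.336). It gained none with any other library left out, with values up to -0.0890 without WFA replicate 3. Thus 2 genes were called lower with the block and with total counts, and 1 to 2 with a library left out. The block changed no other call among the 10 genes. With it, residual degrees of freedom fell from 4 to 2, while the prior degrees of freedom that edgeR adds to them went from 10.8 to infinite. In the simulated data, 4.57% of the calls were false with the block and 0.53% without it.

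With total counts the median was -0.196 for the ERK, SRF and CREB regulators, -0.0997 for NuRD subunits, 0.669 for other early effector genes and -0.0635 for PP2A-B55 and HSF genes. Over all genes the share of calls that were higher went from 51% to 41.6% with total counts (2763 higher, 3875 lower). With a library left out, the effector genes had medians of 0.624 to 0.903, the other early transcription factors 0.878 to 1.22, and 1 to 3 of the PP2A-B55 and HSF genes were called. The causes were not tested. A prior count of 0.5 in place of 2 left the direction of each of the 7 ratios as it was. Depth limits NR4A3, EGR4 and, in part, NR4A1 and EGR2.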
